A study of Drosophila melanogaster with 3 samples.

Results

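The cells described here are the stem-like progenitors of the mature adult *Drosophila* midgut, 246 of the 1980 cells kept from that library (12.4%, exact Clopper-Pearson 95% interval 11.0–14.0) and of 5190 kept cells in the series. They were chosen on the RNA of *esg*, *klu*, *E(spl)m3-HLH* and *E(spl)mbeta-HLH*, which together had to reach at least 8 of every 10000 UMIs (unique molecular identifiers, each standing for 1 captured RNA molecule) and at least 3 UMIs in the cell. A cell also had to hold at most 1 UMI of *pros*, the homeobox gene of enteroendocrine cells, and fewer than 2 of every 10000 UMIs of *stg* and *dUTPase*, genes of dividing cells. The other 1734 kept cells of the library are the cells they are set against, and because the progenitors were chosen on these same cells, all values below are descriptions without a test.

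The adult midgut is renewed from intestinal stem cells (ISCs), which sit at the base of the epithelium and keep the Snail family factor *esg* on. An ISC presents the ligand Delta to its daughter, and Notch signalling in that daughter turns on genes of the Enhancer of split complex and *klu* as it becomes an enteroblast (EB) on its way to an absorptive enterocyte. Daughters that see little Notch signalling become hormone-secreting enteroendocrine cells instead.

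Cells of dissociated intestines from the red-eye pupa (early pupa), the immature adult (day 1) and the mature adult (day 7 to 8) were sequenced as 1 library each, by a droplet method of 10x Genomics that reads transcripts at their 3′ end. All 3 libraries are labelled as female, as *CantonS* with a *per01* background (a mutant of the clock gene *per*), and as dissected at ZT0, the start of the light phase. The study's methods name *CantonS* alone for these cells, list *per01* as a separate strain, and call 1 of the libraries pharate (an adult not yet emerged) where the label has the day 1 adult. The labels were followed, and the genotype at *per* and the exact age of that library are uncertain. No treatment is named, and no library has a replicate, so a difference between stages and a difference between libraries cannot be told apart. How many guts went into each library is not given in the sources used here.

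The mature adult library held 6835 barcodes with 77966155 UMIs, of which the kept cells carried 47585248. Depth differed between the classes of cells. The progenitors had a median of 19073.5 UMIs and 2696.5 genes, with 7.56% of the UMIs from mitochondrial genes, against 12127.5 UMIs, 1679.5 genes and 5.13% in the other kept cells. The mature adult shared 0 barcodes of kept cells with the immature adult and 2 with the early pupa.

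**Figure D1:**
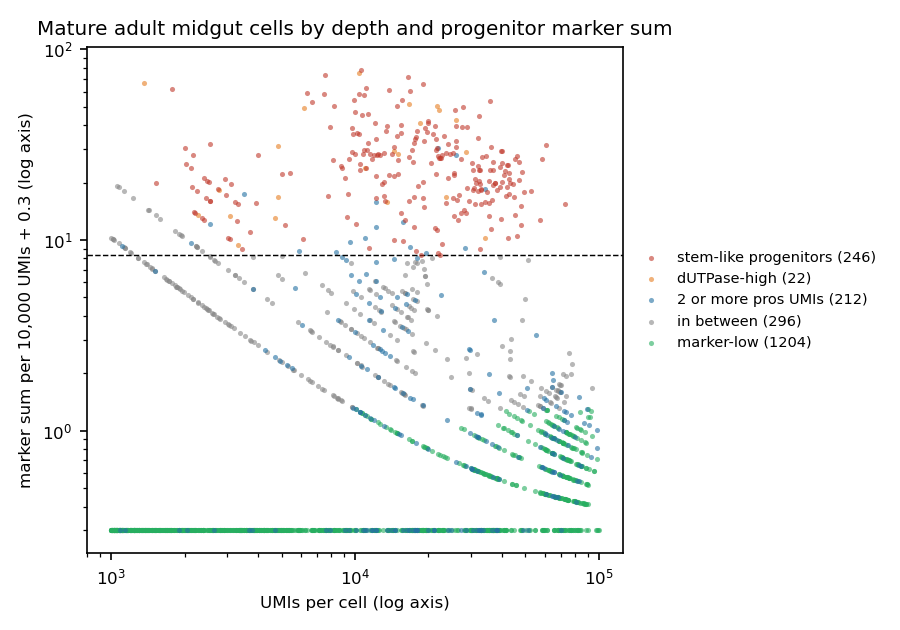
Each point is 1 of the 1980 kept mature adult cells, with its UMIs on the x axis (log) and the sum of the 4 marker genes per 10000 UMIs, with 0.3 added, on the y axis (log). Colours give the 246 stem-like progenitors, 22 *dUTPase*-high cells (the marker sum of the progenitors, but over the limit on *stg* and *dUTPase*), 212 cells with 2 or more *pros* UMIs, 296 in-between cells and 1204 marker-low cells, and the dashed line is the threshold of 8 per 10000.

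The marker sum of the progenitors ran from 8.04 per 10000 UMIs in the lowest cell through a median of 22.6 to 77.6 in the highest. The 3 progenitors nearest the threshold had 8.04, 8.08 and 8.22 per 10000, and the nearest cells left out had 7.95, 7.83 and 7.72. Only 14 progenitors lay between 8 and 10 per 10000, and 8 rested on exactly 3 marker UMIs. A UMI of all 4 markers was found in 185 progenitors, of 3 in 43, of 2 in 16 and of a single marker in 2. Another 26 cells passed the threshold per 10000 with fewer than 3 marker UMIs and 15 passed it with more than 1 *pros* UMI, so the set they are compared with is not free of progenitors.

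Of the 4 markers, *esg* (FBgn0001981) was the most abundant. Per cell it had 0, a median of 9.16 and at most 40.6 per 10000 UMIs, and its summed level was 1069 CPM (counts per 1000000 summed UMIs, 1041–1097) in the progenitors, against 39.4 CPM (37.6–41.4) in the other cells. The zinc-finger gene *klu* (FBgn0013469, 3L from 10981171 to 11009188) stood at 471 CPM (453–490) in the progenitors and 21.4 CPM in the other cells. The 2 transcriptional repressors of the Enhancer of split complex, *E(spl)m3-HLH* and *E(spl)mbeta-HLH*, lie close together on 3R and stood at 331 and 524 CPM in the progenitors, against 12.1 and 22.1 CPM in the other cells. In brackets are exact Poisson 95% intervals, which cover counting error only, as do all intervals that follow.

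The label was checked against further genes. *Dl*, which encodes Delta and is the usual marker of ISCs, had a UMI in 52 of the 246 progenitors (21.1%), against 1.08% of marker-low cells (a marker sum of at most 1 per 10000 and at most 1 *pros* UMI), whose median depth was 9154.5 UMIs. Its level was 23.8 CPM in the progenitors and 2.70 CPM in the other cells. The progenitors with a *Dl* UMI had a median of 9.06 per 10000 for *E(spl)m3-HLH* and *E(spl)mbeta-HLH* together, against 8.44 in those without, but both genes are part of the rule that admitted the cells. Since *klu* and the *E(spl)* genes are also the classical marks of EBs and most of the cells had no *Dl* UMI at this depth, the group is called progenitors here and is not divided into ISCs and EBs.

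Of 7409 genes with at least 50 UMIs in both sets of cells together, 2242 (30.3%) were at least 4-fold higher in the progenitors and 974 (13.1%) at least 4-fold lower. The median log2 ratio over all these genes was 1.21, not 0. The 50 most abundant genes took 39.1% of all UMIs in the progenitors and 54.6% in the other cells. With this median subtracted, an alternative chosen after seeing the data, 464 genes were at least 4-fold higher and 1490 at least 4-fold lower. Leaving the 50 most abundant genes of either set out of the totals gave 1155 higher and 1198 lower with a median of 0.60, and thinning each cell to 5000 UMIs gave 837 higher and 724 lower with a median of 0.79. Log2 ratios below are given as measured, and a ratio near 1.21 is thus the ratio of a typical gene.

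The 20 genes with the highest ratio, by a rule that added 20 CPM to both levels, held several receptors and their regulators. *N* (FBgn0004647, X from 3134870 to 3172221), the receptor of Delta, had 0, a median of 4.60 and at most 52.2 UMIs per 10000 in the progenitors, and a median of 0 and at most 27.2 in the other cells. Its summed level was 474 CPM in the progenitors and 17.8 CPM in the other cells, a log2 ratio of 4.73 (4.62–4.85), and the ranges of the cells overlapped. *kuz*, the metalloprotease that cleaves Notch, stood at 447 CPM, against 23.3 CPM. *E(spl)malpha-BFM*, a Bearded family gene of the same complex as the chosen markers, stood at 300.1 CPM in the progenitors, a log2 ratio of 4.64.

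*Egfr*, the receptor through which growth signals from muscle and epithelium drive the division of ISCs, had a median of 4.31 and at most 26.1 UMIs per 10000 in the progenitors and a median of 0 and at most 15.8 in the other cells. In sum it stood at 493 CPM in the progenitors and 19.0 CPM in the other cells (log2 ratio 4.70, 4.58–4.81). *sty* (sprouty), an inhibitor of receptor tyrosine kinase signalling, stood at 940.0 CPM, against 44.9 CPM. The insulin receptor *InR* was at 917 CPM in the progenitors and 57.5 CPM in the other cells (3.99, 3.92–4.07). *Mad*, the transcription factor of BMP signalling, was at 516 CPM, against 33.4 CPM, and *robo2*, a receptor of Slit, at 791 CPM, against 29.6 CPM.

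The most abundant RNA of the 20 was *MRE16* (FBgn0267910, X from 3545750 to 3546110, minus strand), annotated as a non-coding RNA that lies within *DIP-alpha* on the same strand. In the progenitors it had at least 7.90, a median of 287 and at most 818 UMIs per 10000, and in the other cells a median of 6.45 and at most 1393. All 246 progenitors had a UMI of it, and in sum it took 30074 CPM in the progenitors and 1579 CPM in the other cells. A shorter non-coding RNA on the X, *CR40469* (122493 to 122706), stood at 2297 CPM in the progenitors and 130 CPM in the other cells. Whether reads of *DIP-alpha* add to *MRE16* was not tested.

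*path*, a transporter of amino acids, ranked first of the 20 genes with 20 CPM added to both levels (log2 ratio 4.29). As measured it stood at 2497 CPM in the progenitors and 109 CPM in the other cells (log2 ratio 4.52, 4.47–4.57). It had a median of 16.8 UMIs per 10000 in the progenitors and of 0.140 in the other cells, with ranges that overlapped. *Myc*, which drives growth, stood at 2174 CPM, against 195 CPM, and *bun*, a gene of the TSC22 family, at 3229 CPM, against 293 CPM. *Tet*, a dioxygenase that acts on modified nucleic acid bases, was at 1476 CPM in the progenitors and 74.9 CPM in the other cells. *Msp300*, a nesprin that links nuclei to the cytoskeleton, was at 3447 CPM, against 269 CPM, although some of the other cells reached 1751 per 10000 and no progenitor passed 109. The remaining genes were *hdc*, *Tsp42Ea* (a tetraspanin), *Lrch*, *CG3638* and *Rbfox1* (an RNA-binding protein), with log2 ratios from 4.14 to 4.80.

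At the other end, the 10 lowest genes were, apart from *Pebp1*, peptidases of the digestive tract. *Jon25Bi*, a serine protease, had 0, a median of 0.671 and at most 37.5 UMIs per 10000 in the progenitors and a median of 15.6 and at most 375 in the other cells. In sum it had 548 UMIs in all progenitors and 10617 CPM in the other cells, and its level was 102-fold lower in the progenitors. *alphaTry*, a trypsin, stood at 1299 CPM in the progenitors and 56487 CPM in the other cells, and *Bace*, an aspartyl protease, at 247 and 15577 CPM. The remaining ones were *Jon25Bii*, *Pebp1*, *betaTry*, *epsilonTry*, *Jon99Ci*, *CG12374* and *Jon65Aiii*, with log2 ratios between −6.34 and −5.42. The trypsin and *Jon* genes have near-identical copies, so the division of UMIs among them is uncertain.

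**Figure D2:**
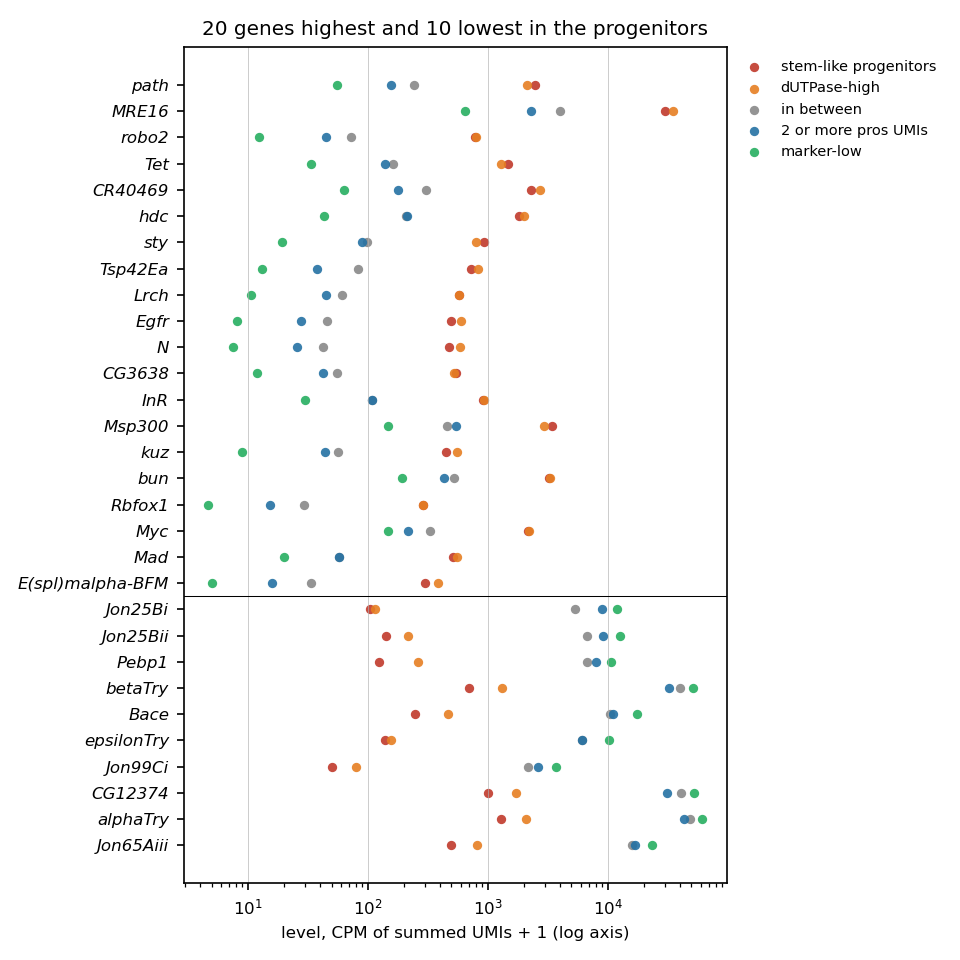
Levels of the 20 genes with the highest and, under the line, the 10 with the lowest ratio, as CPM of summed UMIs with 1 added (x axis, log), with 1 point for each class of mature adult cells. The stem-like progenitors and the 22 *dUTPase*-high cells lie side by side, for *N* at 474 and 585 CPM, while marker-low cells stand at 6.58 CPM.

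The low levels of digestive genes in the progenitors can be set beside those in barcodes of low depth. Whether these barcodes held cells or free RNA was not tested. Barcodes with at most 1000 UMIs, 3694 in number, held *alphaTry* at 24431 CPM, far above the 1299 CPM of the progenitors, and genes of a list of 52 enterocyte products took 16.5% of their UMIs. In the progenitors the same list took 1.11% of the UMIs, against 33.0% in the other cells. All 51 of its genes above the filter were at least 4-fold lower in the progenitors, with a median log2 ratio of −4.23.

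The enterocyte list was not spread evenly over the progenitors. In 189 of the 246 its genes took under 1% of the UMIs, in 20 from 1 to 5%, and in 37 at least 5%. Those 37 cells were divided by depth at 5000 UMIs. A group of 25 had fewer than 5000 UMIs (median 2509), between 5.53 and 10.1% of them from the list, and a median marker sum of 15.8 per 10000. The other 12 had 5000 UMIs or more (median 16752.5), 6.32 to 23.8% of them from the list, and a median marker sum of 9.52 per 10000, near the threshold. Mitochondrial genes took a median of 14.4% of the UMIs in the 25 cells, 7.56% in the 12 and 7.11% in the 189. In the 7 progenitors with fewer than 5000 UMIs and under 5% from the list, the median was 5.25%. What sets the 25 cells apart was not tested.

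These 12 cells alone carried 50.9% of all enterocyte-list UMIs of the progenitors. In them *Jon99Cii*, a serine protease, stood at 63298 CPM, against 1055 CPM in the 189 cells with under 1%, and *PGRP-SC2*, a peptidoglycan-degrading amidase, at 6188 CPM, against 27.5 CPM. *esg*, *klu* and *N* were lower there, at 217, 150.4 and 100.3 CPM, against 1096, 471 and 479 CPM in the 189 cells. *E(spl)mbeta-HLH* was at 590 CPM in the 12 and 511 CPM in the 189 cells, but 1 cell weighed heavily on the first value. That cell had 53.6 UMIs per 10000 of *E(spl)m3-HLH* and *E(spl)mbeta-HLH* together, and 0 of *esg* and *klu*. The other cells of the 12 had 1.98 to 11.6 per 10000, so 590 CPM does not describe most of them. Both genes are part of the rule, through which a cell low in *esg* and *klu* passes mainly on them. *Dl* had 0 UMIs in the 12 cells, which at their 179531 UMIs allows up to 16.7 CPM, against 22.7 CPM in the 189. Whether these are cells on the way to enterocytes, 2 cells under 1 barcode or free RNA was not tested, and the division at 5% was chosen after seeing the data. Without all 37 cells, 2286 genes were at least 4-fold higher and 1026 at least 4-fold lower.

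Genes known to act in midgut progenitors were the list with the highest median. Of 20 above the filter, 16 were at least 4-fold higher in the progenitors and 0 lower, with a median log2 ratio of 3.31, beside 1.21 over all genes. Over all genes 30.3% were at least 4-fold higher and 13.1% lower, and each list below is to be read beside these shares. *mira*, an adaptor of asymmetric division in neuroblasts, stood at 213 CPM in the progenitors and 7.23 CPM in the other cells (4.88, 4.70–5.07) and had a UMI in 65.4% of the progenitors and 4.73% of marker-low cells. The Sox factors *Sox21a* and *Sox100B*, which EBs need to differentiate, stood at 146 and 84.4 CPM, against 5.34 and 4.56 CPM. *zfh2* was at 200 CPM, against 9.27 CPM, and *lin-28*, an RNA-binding protein that promotes symmetric stem cell division, at 126 CPM, against 6.60 CPM. *Imp* and *Syp*, RNA-binding proteins that oppose each other in neuroblasts, were both high, at 851 and 915 CPM, against 94.1 and 102 CPM.

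In the Notch pathway, 10 of 16 genes above the filter were at least 4-fold higher and 0 lower (median 2.79). Besides *N*, *kuz* and *Dl*, they held *fng*, a glycosyltransferase that tunes the receptor, at 35.2 CPM in the progenitors and 1.56 CPM in the other cells (4.50, 4.08–4.92). *pen-2*, a subunit of gamma-secretase, had a log2 ratio of 0.17 (−0.25 to 0.57), below that of a typical gene. Of the further Enhancer of split genes, *E(spl)malpha-BFM* alone was well detected. In a list of 12 Notch targets 4 passed the filter, of which 2 were at least 4-fold higher, and 5 had 0 UMIs in the progenitors.

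For EGFR signalling, 12 of 22 genes were at least 4-fold higher and 0 lower (median 2.47). Among the ligands, *spi* stood at 134 CPM in the progenitors and 9.15 CPM in the other cells (3.87, 3.69–4.05) and *vn* at 12.5 CPM, against 0.733 CPM. *Krn* was at 13.8 CPM, against 9.88 CPM (0.48, 0.10–0.84). The negative regulators *sty*, *aos* and *Mkp3* had log2 ratios of 4.39, 4.28 and 3.48, and the repressor *cic* of 3.48. The core kinases were nearer to a typical gene, with 1.70 for *Raf*, 1.12 for *Dsor1* and 1.61 for *rl*.

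For JAK/STAT signalling, 7 of 9 genes were at least 4-fold higher and 0 lower (median 2.63). The receptor *dome* stood at 96.1 CPM in the progenitors and 9.48 CPM in the other cells, and the cytokines *upd3* and *upd2* at 30.1 and 12.7 CPM, against 2.03 and 1.28 CPM. A UMI of *upd3* was found in 26.4% of the progenitors and 2.08% of marker-low cells. Of 20 Wnt and Hippo genes 11 were at least 4-fold higher (median 2.23), led by *kibra*, an upstream regulator of Hippo, at 344 CPM, against 26.3 CPM. The frizzled receptor *fz2* was at 203 CPM, against 27.4 CPM, while *yki*, the effector of Hippo signalling, had a ratio of 1.16.

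For BMP and activin signalling 6 of 14 genes were at least 4-fold higher and 1 lower (median 1.88), beside 30.3% and 13.1% of all genes. The repressor *brk* stood at 72.8 CPM in the progenitors and 7.66 CPM in the other cells, and the ligand *gbb* at 21.9 CPM, against 1.94 CPM. *Actbeta*, an activin ligand, was the one that was lower, with 2 UMIs in all progenitors. For insulin and TOR signalling 8 of 15 genes were at least 4-fold higher (median 2.31), with *Akt1* at 363 CPM, against 30.8 CPM. *Thor*, a repressor of translation, was at 744 CPM in the progenitors and 519 CPM in the other cells (0.52), and *Rheb* had a ratio of 0.10.

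Adhesion and cytoskeleton formed a broad group, with 20 of 27 genes at least 4-fold higher and 0 lower (median 2.68). *shg*, which encodes E-cadherin and holds ISCs to their daughters, stood at 351 CPM in the progenitors and 27.5 CPM in the other cells (3.67, 3.57–3.78). The integrin subunits *mew* and *mys*, which bind the basement membrane, were at 504 and 346 CPM, against 35.8 and 54.0 CPM, and the integrin adaptor *rhea* (talin) at 303 CPM, against 24.1 CPM. *cher*, a filamin, had the second-highest ratio of the list after *robo2*, at 124 CPM, against 5.04 CPM (4.62, 4.39–4.85). *tsr* (cofilin) was at 518 CPM in the progenitors and 721 CPM in the other cells.

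Of 10 genes of calcium and mechanical sensing 2 were at least 4-fold higher and 1 lower (median 1.44), shares below those of all genes (30.3% and 13.1%). *Piezo*, a stretch-gated channel known from a subset of midgut precursors, had a UMI in 38.6% of the progenitors and 2.24% of marker-low cells, and stood at 34.4 CPM in the progenitors and 6.74 CPM in the other cells (2.35, 2.08–2.63). Of 13 immediate stress genes 4 were at least 4-fold higher and 2 lower (median 1.62), shares close to those of all genes. The pro-apoptotic *hid* stood at 140 CPM, against 8.42 CPM, and the ETS factor *Ets21C* at 88.4 CPM, against 7.57 CPM. The 2 lower genes were *sr*, a zinc-finger factor, and the pro-apoptotic *rpr*, each with 1 UMI in all progenitors (log2 ratios −4.84 and −3.77).

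Cell cycle genes were low in level, although the rule limits only *stg* and *dUTPase*. Of 24 above the filter 18 were at least 4-fold higher than in the other cells and 0 lower (median 2.85). *CycA* stood at 29.7 CPM in the progenitors and 1.23 CPM in the other cells, with a UMI in 38.6% of the progenitors and 1.25% of marker-low cells. *polo*, a mitotic kinase, was at 9.65 CPM, against 0.355 CPM. *dap*, an inhibitor of cyclin-dependent kinases, was at 37.3 CPM, against 3.71 CPM, and *E2f1*, which drives entry into S phase, at 243 CPM, against 35.2 CPM.

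Of 11 clock genes 6 were at least 4-fold higher and 0 lower (median 2.11), and *vri* and *per* had the highest ratios. *vri* stood at 175 CPM in the progenitors and 21.3 CPM in the other cells (3.04, 2.91–3.18). *per* RNA was at 29.3 CPM, against 3.40 CPM. Of 15 genes of nuclear receptors and hormones 6 were at least 4-fold higher and 0 lower (median 1.95), beside 30.3% and 13.1% of all genes. The ecdysone receptor *EcR* stood at 122 CPM, against 13.9 CPM, and the juvenile hormone receptor *gce* at 234 CPM, against 41.6 CPM. Genes of midgut regions went both ways, with 2 of 15 at least 4-fold higher and 4 lower (median 0.55). The POU factor *nub*, which marks enterocytes, was at 5.49 CPM in the progenitors and 41.7 CPM in the other cells.

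Of all lists, ribosomal proteins took the largest share of the progenitors' UMIs. Their genes made up a median of 41.9% of the UMIs of a progenitor (lowest 11.0%, highest 58.0%) and of 19.8% of another kept cell (lowest 2.75%, highest 64.9%). All 81 of those above the filter were higher in the progenitors, but 2 by at least 4-fold, and their median of 1.19 was that of a typical gene. Nuclear genes of oxidative phosphorylation were relatively lower, with 0 of 64 at least 4-fold higher and 2 lower (median −0.87), as were subunits of the vacuolar ATPase, with 0 of 18 higher and 6 lower (median −1.63). Genes of the brush border and septate junctions had 1 of 10 at least 4-fold higher and 6 lower (median −2.08).

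**Figure D3:**
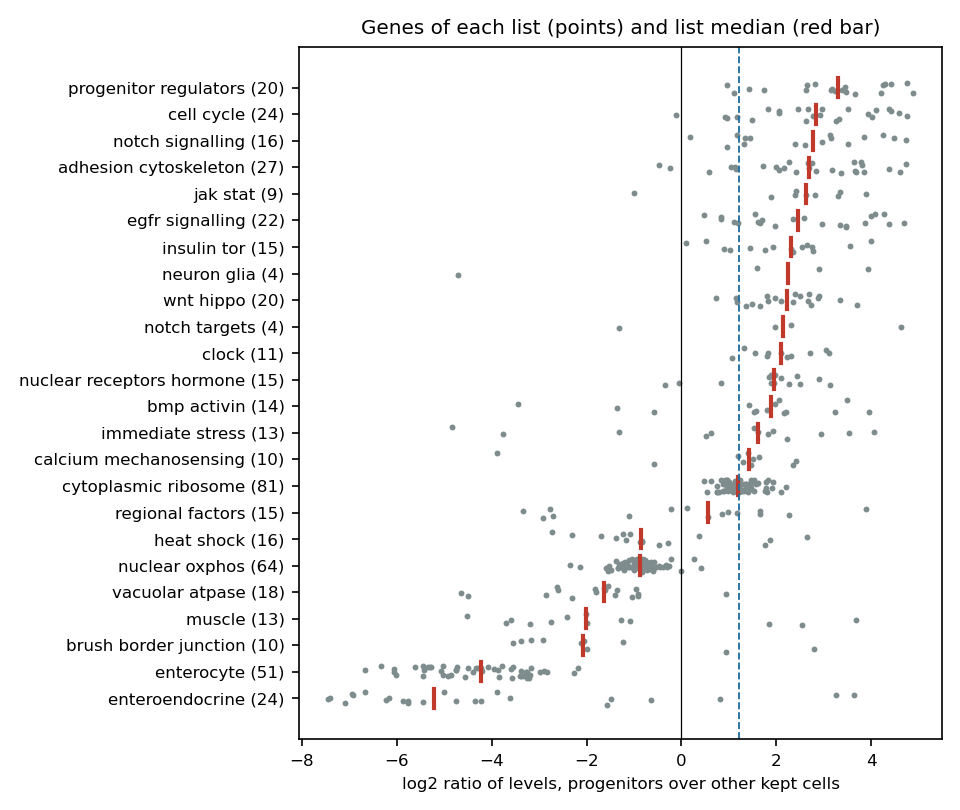
Log2 ratio of the level in the 246 stem-like progenitors over that in the other 1734 kept cells (x axis), with 1 point for each gene of a list above the filter, the number of genes in brackets and the median as a red bar. The dashed line is the median of all 7409 genes at 1.21. Progenitor regulators have the highest list median at 3.31 and the enteroendocrine list the lowest at −5.22. The limit on *pros* in the rule leaves enteroendocrine cells among the other cells.

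Markers of other cell types were looked for in the progenitors. Of 24 enteroendocrine genes 18 were at least 4-fold lower and 2 higher (median −5.22). The rule itself sets much of this, since its limit on *pros* leaves the 212 cells with 2 or more *pros* UMIs among the other cells. Summed, the list stood at 525 CPM in the progenitors and 34376 CPM in those 212 cells. In marker-low cells, which have the same limit on *pros*, it stood at 947 CPM. Of the peptide hormones, *AstA* had 0 UMIs in all progenitors, which allows up to 0.568 CPM, and *Orcokinin* stood at 21.9 CPM, against 1567 CPM in the other cells. *NPF* was at 32.4 CPM, with at most 148 UMIs per 10000 in a single progenitor. The exceptions were *ITP*, the ion transport peptide gene, at 152 CPM in the progenitors and 12.2 CPM in the other cells (3.63, 3.47–3.80), and the kinesin *unc-104*, at 63.4 CPM, against 6.64 CPM. *ITP* had a UMI in 76.0% of the progenitors and 6.89% of marker-low cells.

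Of 13 muscle genes 7 were at least 4-fold lower and 2 higher (median −2.01). The myosin heavy chain gene *Mhc* had 1 UMI in all progenitors, and the 2 higher genes, *Msp300* and *Tm1*, are also used outside muscle. Of 4 neuron and glia genes above the filter 2 were at least 4-fold higher and 1 lower, with log2 ratios from −4.72 to 3.94. The pan-neuronal RNA-binding gene *elav* was at 118 CPM in the progenitors and 15.8 CPM in the other cells (2.90, 2.74–3.06). It had a UMI in 69.9% of the progenitors and 8.64% of marker-low cells, while *brp*, a gene of synapses, had 0 UMIs. Only 1 of the 12 hemocyte genes passed the filter, the scavenger receptor *crq* at 126 CPM, against 28.9 CPM, and *Hml* had 0 UMIs. Of 2 tracheal genes above the filter 1 was at least 4-fold higher, *btl* at 8.70 CPM, against 0.284 CPM. The other was at least 4-fold lower, with a log2 ratio of −2.78. Of the germline and fat body list the 1 gene above the filter was lower. The part of such other cell types in the values of the progenitors was not tested.

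Heat-shock RNA was uneven across the progenitors. Of 16 above the filter 1 was at least 4-fold higher and 2 lower (median −0.86), beside 30.3% and 13.1% of all genes. The exception was *Hsp83*, the fly Hsp90, with at least 2.96, a median of 47.1 and at most 247 UMIs per 10000 in the progenitors, and a level of 5745 CPM in the progenitors and 909 CPM in the other cells. The small heat-shock gene *Hsp26* had 0, a median of 1.82 and at most 194 UMIs per 10000 in the progenitors, and its level was 876 CPM in the progenitors and 1968 CPM in the other cells. Without *Hsp83*, *Hsromega* and *Hsf*, the list took a median of 0.135% and at most 3.83% of the UMIs of a progenitor, and over 1% in 18 of the 246 (7.32%). In the other cells the median was 0.322%, and 143 (8.25%) were over 1%. The *Hsp70* genes are near-identical copies, and their separate values are uncertain. The study's methods dissociated the intestines with elastase at a temperature above that at which the flies were raised. Whether this step added to the heat-shock RNA here and in the contrasts below was not tested.

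To compare cells at 1 depth, 214 progenitors with at least 5000 UMIs were thinned at random to that number, and 32 shallower ones left out. Over 1036 genes with at least 100 UMIs left, the median ratio of variance to mean was 1.30, where a ratio of 1 is pure counting, and 76 genes were above 5. The ratio was 3.12 for *esg*, 2.55 for *klu*, 1.90 for *E(spl)m3-HLH* and 4.01 for *E(spl)mbeta-HLH*. It was 30.6 for *Hsp23* and 29.5 for *Hsp26*, and 236 for *Jon99Cii*, of which 10 cells held 66.8% of the UMIs. *MRE16* was at 41.7, with 3 to 415 UMIs per cell. *N* and *Tet* were far lower at 1.44 and 1.94, both above the median of 1.30. Across these 214 cells Spearman's rho was 0.53 between *Hsp23* and *Hsp26*. Over the 6 pairs of the chosen markers it ran from −0.08 (*klu* and *E(spl)m3-HLH*) to 0.24 (*esg* and *klu*), in cells chosen on the sum of these genes. *E(spl)mbeta-HLH* had a rho of −0.33 with the depth of the cell before thinning, which all these values share.

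The Notch-responsive part of the marker sum divided the progenitors further. *E(spl)m3-HLH* and *E(spl)mbeta-HLH* together reached at least 8 per 10000 UMIs in 133 progenitors (median depth 14874 UMIs), 2 to 8 in 100 and under 2 in 13 (median depth 21324). Of 3724 genes with at least 50 UMIs in the first and last class together, 44 (1.18%) were at least 4-fold higher in the 133 cells and 8 (0.215%) at least 4-fold lower, and 90.1% were within 2-fold. *Hsp26* stood at 1156 CPM in the 133 cells and 107 CPM in the 13 cells, *Hsp23* at 1415 and 153 CPM, and *Hsp68* at 311 and 28.5 CPM. In the 13 cells *Hsp26* rested on 30 UMIs in 10 cells. With 20 CPM added to both levels *Hsp26*, *Hsp23* and *Hsp68* ranked highest in this contrast, whereas as measured *NPF* did. Against the 44 cells under 4 per 10000, an alternative chosen after seeing the data, *Hsp26* had a log2 ratio of 1.30 in place of 3.43.

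The remaining genes of that contrast were *Hsp70Ab*, *CG32850*, *CG44085*, *CG6006* and *NPF* on the high side, with log2 ratios from 2.36 to 4.24. A single cell held 90.7% of the *NPF* UMIs of the 133. On the low side were *CR43264*, *drm*, *JhI-26*, *ImpL3* (lactate dehydrogenase), *trol* (perlecan, of the basement membrane), *CG32368*, *CG42365* and *mnd*, with −5.50 to −1.86. *CR43264* and *drm* each had UMIs in 3 of the 13 cells, so few cells set these values. *trol*, at 61.6 CPM in the 133 cells and 303 CPM in the 13, had UMIs in 60 and 9 cells. *E(spl)malpha-BFM*, which the division did not use, was at 349 CPM in the 133 cells and 203 CPM in the 13 (0.78, 0.39–1.19), where 1 cell held 57.9% of its UMIs. Without that cell, left out after seeing the data, it was at 98.0 CPM in the other 12 (1.83, 1.25–2.48). *Dl* was at 30.6 CPM in the 133 cells and 64.2 CPM in the 13 (−1.07, −1.83 to −0.24), and at 44.4 CPM without the cell that held 38.9% of its UMIs there (−0.54, −1.46 to 0.53).

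**Figure D4:**
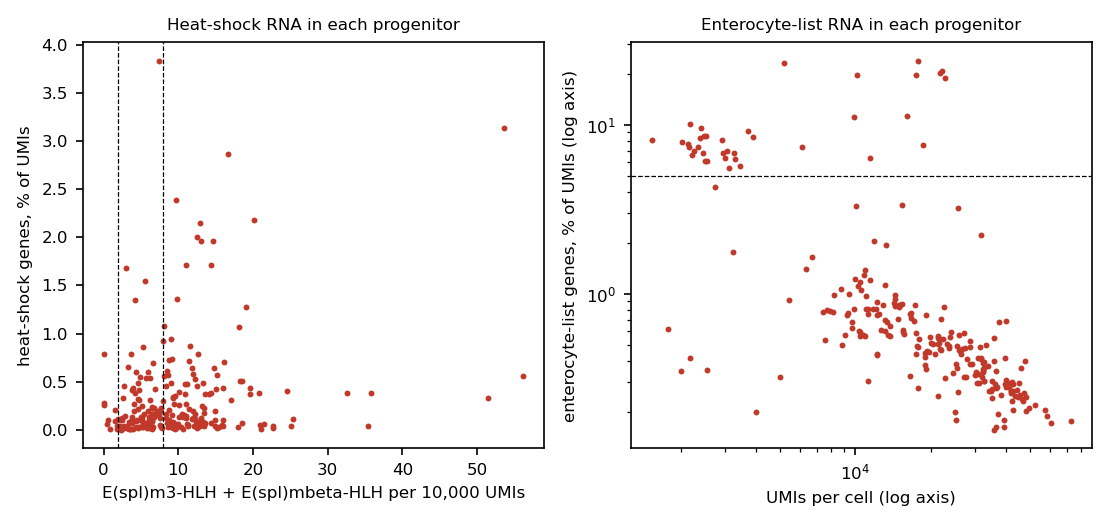
Each point is 1 of the 246 stem-like progenitors. Left, the share of UMIs from 15 heat-shock genes against *E(spl)m3-HLH* and *E(spl)mbeta-HLH* per 10000 UMIs, with lines at 2 and 8 (highest share 3.83%). Right, the share of UMIs from the enterocyte list against depth, both on log axes, with a line at 5%, above which 25 of 37 cells have fewer than 5000 UMIs.

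The 22 *dUTPase*-high cells of the library have the same marker sum but 2 or more per 10000 of *stg* and *dUTPase*. They were set apart on *dUTPase* almost alone, with 74 UMIs of it and 1 of *stg*. *CycA* was at 29.7 CPM in the progenitors and 27.7 CPM in these cells, *polo* at 9.65 and 6.93 CPM, and *CycB* and *CycE* had 0 UMIs there. The whole cell cycle list, without *dUTPase*, summed to 766 CPM in the progenitors and 949 CPM in the *dUTPase*-high cells. Of 5311 genes 40 (0.753%) were at least 4-fold higher in the progenitors and 11 (0.207%) at least 4-fold lower, and 88.3% were within 2-fold. *HmgD*, a chromatin protein, stood at 178 CPM in the progenitors and 443 CPM in the *dUTPase*-high cells (−1.32, −1.59 to −1.04). *CR43264*, a non-coding RNA, was at 346 CPM in the *dUTPase*-high cells (log2 ratio −3.79), and *GstD2*, a glutathione transferase, at 22.9 CPM, against 142 CPM. Higher in the progenitors were products of enterocytes such as *CG18180*, at 451 CPM, against 118 CPM, and *PGRP-SC2*, at 245 CPM, against 58.9 CPM, both of which the 12 cells above carried. *Dl* was at 23.8 CPM in the progenitors and 52.0 CPM in the *dUTPase*-high cells, and 22 cells give little precision for such low genes.

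The same rule found 35 cells in the early pupa (1.74% of its kept cells) and 237 in the immature adult (19.8%), beside 209 and 130 cells with the marker sum but over the limit on *stg* and *dUTPase*. Because such cells make up that much of the other cells there, the 3 libraries were compared against marker-low cells, a choice made after seeing the data. At least 4-fold higher than in marker-low cells were 10.4% of 7025 genes in the early pupa, 14.9% of 6397 in the immature adult and 37.8% of 6965 in the mature adult, and 11.0%, 16.9% and 11.3% were at least 4-fold lower. The 20 genes named above were chosen in the mature adult, where 20 of 20 passed. In the early pupa 15 of 20 were at least 4-fold higher (median log2 ratio 3.25), and in the immature adult 18 of 20 (median 4.80).

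*robo2*, *N* and *Egfr* were high in all 3 libraries. In cells that passed the rule, *N* stood at 556 CPM in the early pupa, 455 CPM in the immature adult and 474 CPM in the mature adult, with log2 ratios over marker-low cells of 4.93, 5.77 and 6.17. For *Egfr* the levels were 627, 380 and 493 CPM in the same order, and the ratios 4.88, 5.54 and 6.11. Because the median over all genes was 0.17, 0.27 and 1.43 in that order, these ratios cannot be compared between stages as they stand. *path* differed in level, at 378 CPM in the early pupa, 1385 CPM in the immature adult and 2497 CPM in the mature adult.

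The 2 that did not pass in the immature adult were *MRE16* and *CR40469*, and the libraries differed in their marker-low cells. In cells that passed the rule *MRE16* stood at 45464 CPM in the early pupa, 40311 CPM in the immature adult and 30074 CPM in the mature adult. In marker-low cells its levels by stage were 40072, 18401 and 651 CPM. *CR40469* stood at 2773, 2155 and 2297 CPM by stage in cells that passed the rule and at 2601, 1325 and 63.0 CPM in marker-low cells. Between stages the levels of both RNAs thus differed far more in marker-low cells than in cells that passed the rule. In the early pupa *Msp300*, *InR* and *bun* did not pass either, with log2 ratios of −0.16, 1.55 and 1.69. Of the 10 lowest genes named above, *Pebp1* included, 10 were at least 4-fold lower in the immature adult. In the early pupa 2 had enough UMIs, *alphaTry* and *Jon65Aiii*, both with 0 UMIs in the 35 cells that passed the rule. Their log2 ratios, −3.21 and −2.19, are upper bounds, and the interval of the second reaches −1.89. In marker-low cells these 2 genes stood at only 54.4 and 26.9 CPM.

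**Figure D5:**
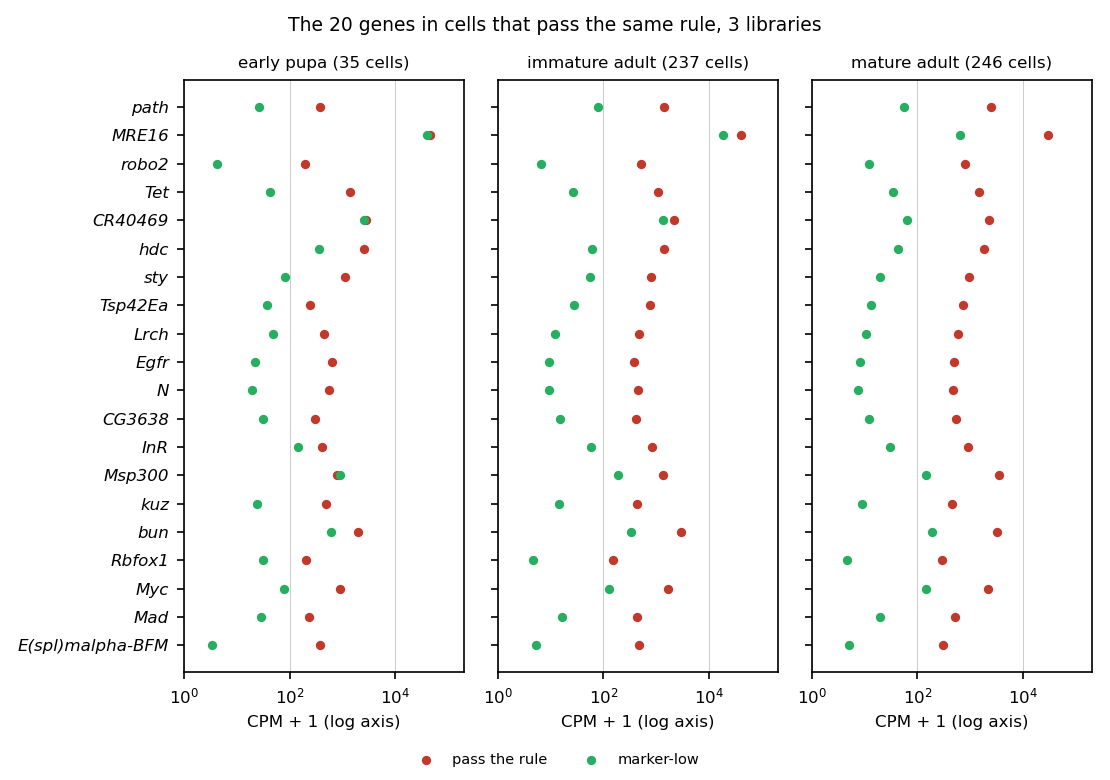
Levels of the 20 genes with the highest ratio in the mature adult, as CPM with 1 added (x axis, log), in cells that pass the rule (red) and in marker-low cells (green), with 1 library of each stage in its panel. *MRE16* and *CR40469* are high in both kinds of cell in the early pupa, at 45464 and 40072 CPM for *MRE16*, and apart in the mature adult.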

How the data were processed

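The deposited matrices hold UMI counts per gene and cell barcode, which the authors made with Cell Ranger (3.0.2 in the submitters' processing notes) on release 6 of the *Drosophila* genome, without normalization. Whether intronic reads were counted is not given in the sources used here. A barcode was kept if its genes numbered between 200 and 4000, its UMIs between 1000 and 100000 (limits excluded) and its mitochondrial UMIs stayed under 25%. No doublet caller was run and doublets were kept, and leaving out the deepest 5% of cells, and progenitors with at least 5% enterocyte-list UMIs, were alternatives. Levels are summed UMIs per 1000000, so deep cells weigh more. Intervals are exact 95% intervals: Poisson for a level, Clopper-Pearson for a share, conditional on the summed counts for a ratio. With 0 UMIs in 1 set, 3 were put in its place; 67 of the called genes have such an upper bound. With 1 library per stage there is no test, p-value or replicate error. Genes with at least 50 UMIs were compared. Named are the 20 highest and 10 lowest, with 20 CPM added and at least 100 UMIs, genes of the rule left out; within the progenitors, the 8 highest and 8 lowest; and examples from 27 lists. The members and lists were chosen with earlier results of these data known. After the files were read, symbols of 6 list genes were changed to those in the files and 3 genes not found there were dropped. Positions are from the BDGP6 annotation, which has 17599 of 17738 gene identifiers and 36 of the 37 named genes, here with the genes of the rule included. On simulated Poisson counts, tested on 7356 genes for the progenitors against the other kept cells, 95.9% of intervals held the true ratio. Of 48 genes raised 8-fold 100% were called, and of 58 genes lowered 8-fold 93.1%. These counts were drawn from 1 pooled profile without variation between cells, so they check the calculation and not the spread of real cells. Python 3.11.15, numpy 2.4.6, scipy 1.17.1, pandas 2.3.3 and matplotlib 3.10.9 were used.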

Additional observations from a re-analysis of the deposited data

How the results depend on the processing

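A total of 20 alternatives were run. The number of progenitors lay between 188, at a threshold of 16 per 10000, and 278, at 5 per 10000. The count of genes at least 4-fold higher, 2242, became 1110 with a mean over cells of the CPM, 1155 with the 50 most abundant genes of either set left out of the totals, 837 with cells thinned to 5000 UMIs, 4804 without a filter and 464 with the median log2 ratio subtracted. The count of genes at least 4-fold lower, 974, became 1490 with the median subtracted and stayed within 1.5 times under the other alternatives. Of 576 recomputed ratios of the 37 named genes, 0 changed sign and 570 stayed past 4-fold. The 37 are the 20 highest genes, the 10 lowest and the genes of the rule. Their ratios were set by the rule or picked as the most extreme in these data, so this count is no independent support. Of the 27 list medians 2 changed sign, that of the heat-shock list to 0.01 against marker-low cells and that of the regional factors to −0.06 without the most abundant genes. No paired analysis was possible because each stage has 1 library. Depth limits the low genes: in the 13 progenitors low in *E(spl)* RNA and the 22 *dUTPase*-high cells a few cells decide the values.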
